A study of Mus musculus with 16 samples.

Results

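Toll-like receptors (TLRs) and the adaptor proteins that carry their signal were examined in colonic epithelial cells isolated from mice with and without dextran sulfate sodium (DSS) colitis. The 10 genes comprise the receptors Tlr1, Tlr2, Tlr3, Tlr4, Tlr6, Tlr9 and Tlr13 and the adaptors Myd88, Tirap and Ticam1. They were taken by symbol from the probe sets that name 1 gene, and are 10 of 19938 genes measured in this way, each with 1 probe set.

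The study varied 2 sources of secretory IgA (SIgA), the antibody that the polymeric immunoglobulin receptor (Pigr) carries into milk and into the gut lumen. Passive SIgA came from the milk of Pigr+/- dams and was missing in offspring of Pigr-/- dams. Active SIgA was transported by Pigr+/- offspring and was missing in Pigr-/- offspring. Offspring therefore had neither source (Pigr-/- from Pigr-/- dams), active SIgA only (Pigr+/- from Pigr-/- dams), passive SIgA only (Pigr-/- from Pigr+/- dams) or both (Pigr+/- from Pigr+/- dams), and each of these was studied after 2% DSS for 8 days and untreated. All mice were C57BL/6, 70 days old and gender-matched, and every group carried at least 1 disrupted Pigr allele, so that no wild-type mice were compared. Each of the 8 groups had 2 arrays, each hybridised with RNA pooled from 3 mice, and all values below are log2 intensities.

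TLRs recognise conserved molecules of microbes. Receptors at the cell surface bind components of the bacterial envelope, and receptors in endosomes bind nucleic acids. Ligand binding brings together the receptors' TIR domains, which recruit MyD88 (also the adaptor of the interleukin-1 receptor family) or TRIF, the product of Ticam1, and lead to activation of NF-kB, MAP kinases and interferon regulatory factors. In the gut epithelium these pathways are known for their part in barrier repair and antimicrobial defence.

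The arrays were checked before the members were read. Signal of Pigr was 11.34 to 11.70 on the 8 arrays of Pigr-/- mice and 12.18 to 12.46 on the 8 arrays of Pigr+/- mice. All 15 epithelial marker genes were above the array median (6.68 to 6.83 over the 16 arrays) on all 16 arrays, whereas none of the 14 neutrophil markers and 2 of the 19 monocyte and macrophage markers were. Some of these were above it on every DSS array, such as Hdc of neutrophils (7.53 or higher) and Tyrobp of macrophages (7.18 or higher). Above it on no array were 8 of the neutrophil and 10 of the macrophage markers. Some arrays stood apart: 1251 chemosensory and keratin-associated genes averaged 5.25 and 5.41 on the 2 untreated arrays with both sources of SIgA, 4.87 on untreated replicate 1 with active SIgA only, and 4.45 to 4.70 on the other 13 arrays. DSS results are given below with all arrays and without these.

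In all, 7 members lay above the array median on all 16 arrays and were taken as measured: Tlr1, Tlr2, Tlr3, Tlr4, Myd88, Tirap and Ticam1. Tlr9 was above it on 3 arrays, 2 from DSS mice and 1 from untreated mice, and stayed within -0.41 to 0.20 of the median throughout. Tlr6 and Tlr13 were above it on 0 of 16 arrays. For the last 3 a difference in signal may be compressed, and a level below or near the array median does not show that a transcript was present. Levels of different genes were not compared, since probe sets differ in their response.

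**Figure D1:**
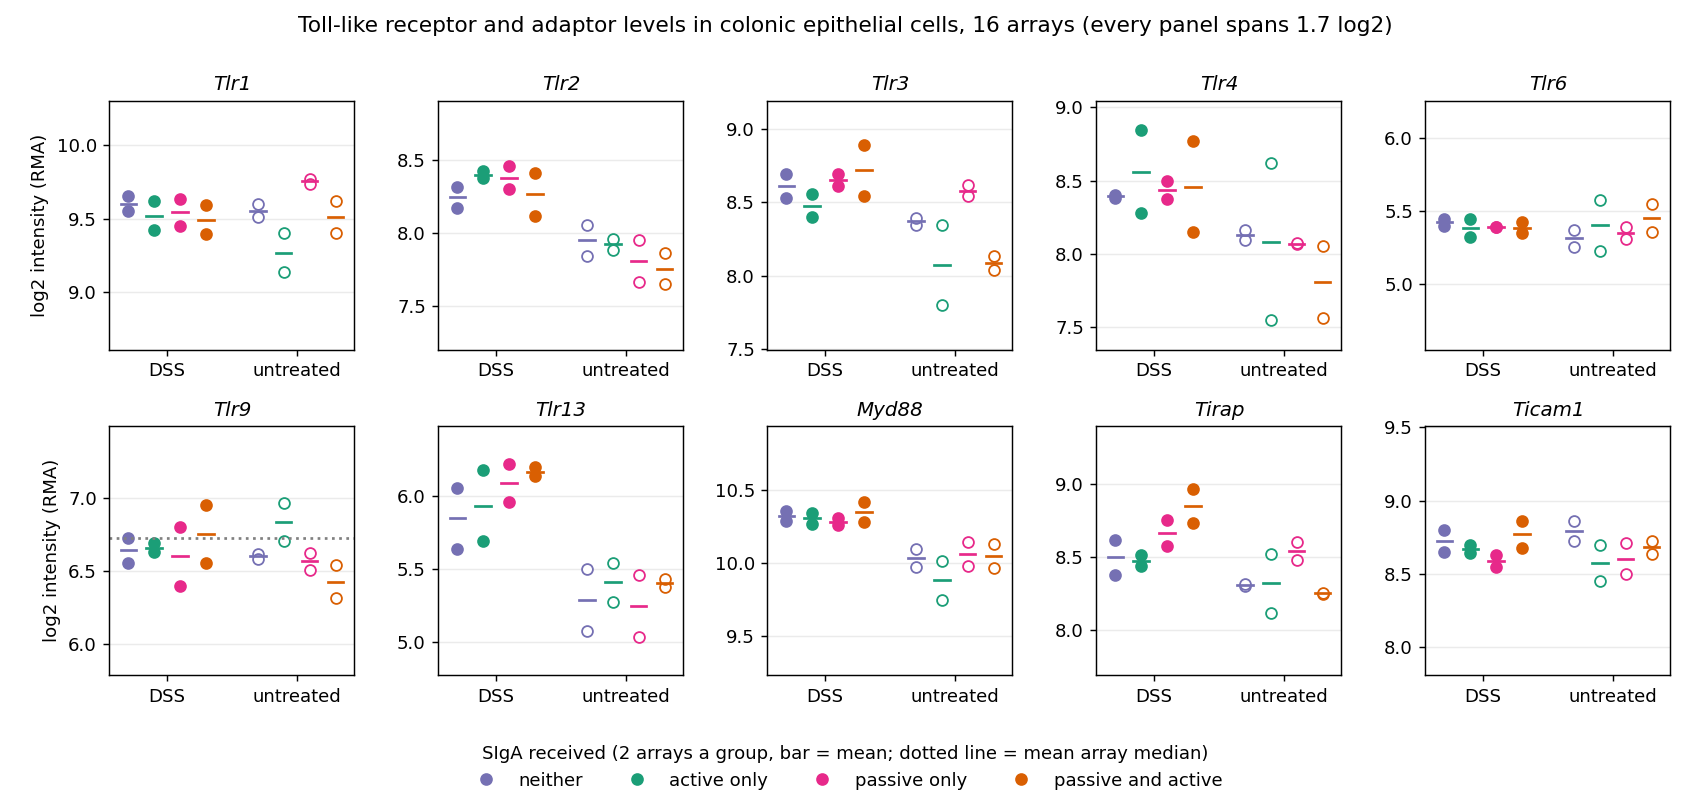
Log2 intensity (y axis) of each of the 10 members on each array, by SIgA group, with DSS arrays (filled) left of untreated arrays (open). The dotted line is the mean of the array medians, drawn only where it falls within a panel. For Tlr2, Tlr13 and Myd88 every DSS array lies above every untreated array. Tlr6 and Tlr13 are below the array median on all 16 arrays.

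The first question was what DSS colitis did to the receptors and adaptors, averaged over the 4 SIgA groups. Of the 10 members 5 rose and 0 fell (limma, adjusted p under 0.05), where 6.4% of all genes rose and 13.1% changed in either direction. They were Tlr13 and Tlr2, Myd88, Tlr3 and Tirap, with changes of 0.67, 0.46, 0.31, 0.34 and 0.27 on the log2 scale. The median change of the 10 members was 0.29, against -0.0044 for all genes. Of the 7 members above the median on all arrays 4 rose, against 9.95% of the 9724 genes above it on all arrays.

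**Figure D2:**
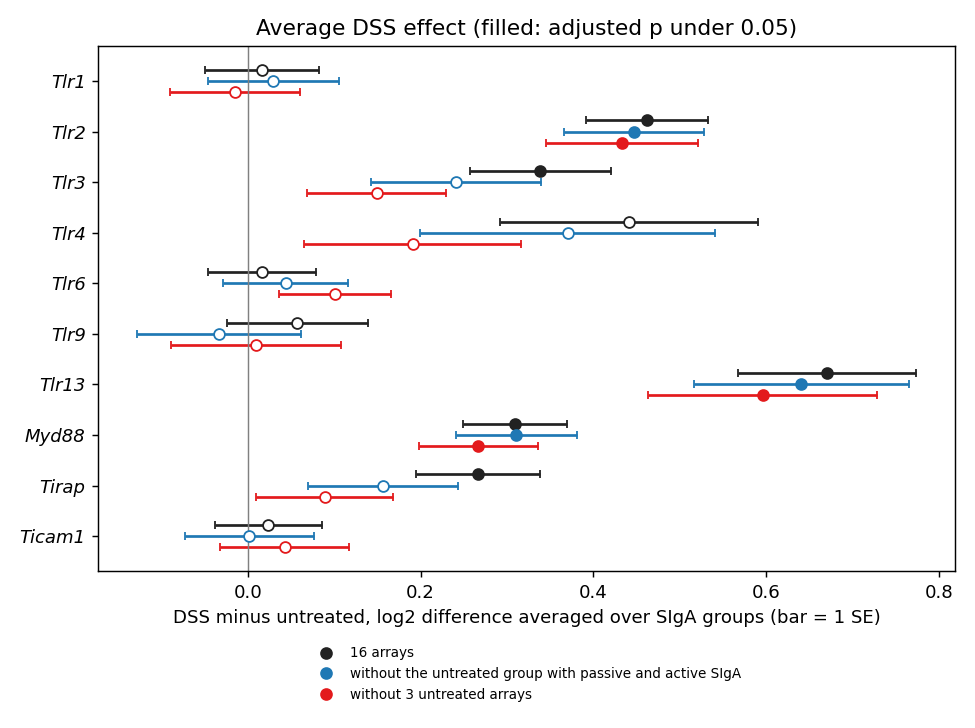
DSS minus untreated difference (x axis, log2) of each member, averaged over the SIgA groups. Bars show the standard error, not a 95% interval. The fit of all 16 arrays is shown beside the fits without the arrays that stood apart. Tlr2, Tlr13 and Myd88 passed the threshold in each of the fits shown, and Tlr3 and Tirap with all 16 arrays only.

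Among the surface receptors, Tlr2 binds bacterial lipoproteins as a partner of Tlr1 or Tlr6. Its level (probe set 10498992) had a lowest, median and highest value of 8.12, 8.35 and 8.46 on the 8 DSS arrays, against 7.65, 7.87 and 8.06 on the 8 untreated arrays. The groups did not overlap. The rise of 0.46 ± 0.07 (SE), a 1.38-fold higher signal, had an adjusted p of 0.000719 by limma. By SIgA group Tlr2 averaged 8.25 ± 0.10 in DSS mice with neither source against 7.95 ± 0.15 in untreated mice with neither, and 8.40 ± 0.03 against 7.92 ± 0.06 with active SIgA only (SD, n = 2 each). It averaged 8.38 ± 0.11 in DSS mice against 7.81 ± 0.20 in untreated mice with passive SIgA only, and 8.27 ± 0.21 against 7.76 ± 0.15 with both. Ordered by mean, neighbouring groups overlapped in their arrays at every step except the step between the 4 DSS groups and the 4 untreated groups.

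Tlr1 and Tlr6, the partners of Tlr2, did not pass the test. Tlr1 ranged over 9.39, 9.57 and 9.65 (lowest, median, highest) on DSS arrays and 9.13, 9.55 and 9.77 on untreated arrays, so that the DSS arrays lay inside the untreated range. Its difference was 0.02 ± 0.07 (95% interval -0.13 to 0.16). Tlr6, below the median throughout, had 5.33, 5.40 and 5.45 on DSS arrays and 5.23, 5.37 and 5.58 on untreated arrays, a difference of 0.02 ± 0.06. Tlr1 and Tlr6 are closely related in sequence, and whether their probes cross-react was not analysed here.

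Tlr4 binds lipopolysaccharide together with Ly96 (MD-2), after transfer from Lbp and Cd14. Its level was 8.15, 8.39 and 8.84 on DSS arrays and 7.54, 8.07 and 8.62 on untreated arrays, which overlapped. The mean was higher after DSS in all 4 SIgA groups, but the difference of 0.44 ± 0.15 did not pass the threshold (limma, adjusted p = 0.0719), and it was 0.19 (adjusted p = 0.498) without the 3 arrays that stood apart. Arrays of 1 group differed widely here: the untreated arrays with active SIgA only had 7.54 and 8.62, and the DSS arrays of the same genotype 8.28 and 8.84.

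Among the endosomal receptors, Tlr3 binds double-stranded RNA and signals through Ticam1 without Myd88. It had 8.40, 8.58 and 8.89 on DSS arrays and 7.80, 8.35 and 8.62 on untreated arrays, with overlap. The rise was 0.34 ± 0.08 (limma, adjusted p = 0.0155). Without the untreated group with both sources it was 0.24 (adjusted p = 0.217), and without all 3 arrays that stood apart 0.15 (adjusted p = 0.388). In DSS mice the arrays by group were 8.69 and 8.53 with neither source, 8.56 and 8.40 with active SIgA only, 8.61 and 8.69 with passive SIgA only and 8.55 and 8.89 with both. In untreated mice they were 8.35 and 8.39 with neither, 7.80 and 8.35 with active SIgA only, 8.62 and 8.54 with passive SIgA only and 8.04 and 8.13 with both. The untreated arrays with passive SIgA only thus lay among the DSS arrays.

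Tlr13 recognises bacterial ribosomal RNA in mice. Its signal (probe set 10601385) stayed below the array median on every array, at 5.64, 6.09 and 6.22 on DSS arrays and 5.04, 5.41 and 5.55 on untreated arrays, without overlap. The rise of 0.67 ± 0.10, 1.59-fold, had an adjusted p of 0.000797 by limma. It was thus the member with the highest log2 change and a signal too low to be taken as measured. Tlr9, the receptor for unmethylated CpG DNA, had 6.40, 6.66 and 6.95 on DSS arrays and 6.31, 6.60 and 6.97 on untreated arrays, a difference of 0.06 ± 0.08.

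Of the adaptors, Myd88 serves all of these receptors except Tlr3. Its level (probe set 10597648) was 10.26, 10.30 and 10.42 on DSS arrays and 9.75, 9.998 and 10.15 on untreated arrays. The groups did not overlap, and the DSS arrays lay within a narrow range (SD 0.05, n = 8, against 0.13 in untreated mice, n = 8). The rise of 0.31 ± 0.06, 1.24-fold, had an adjusted p of 0.0041 by limma. Tirap, which bridges Tlr2 and Tlr4 to MyD88, had 8.38, 8.60 and 8.97 on DSS arrays and 8.12, 8.31 and 8.60 on untreated arrays, which overlapped. It rose by 0.27 ± 0.07 (limma, adjusted p = 0.0265), with 0.16 (adjusted p = 0.42) without the untreated group with both sources and 0.09 (adjusted p = 0.649) without the 3 arrays that stood apart. The call of Tirap was also lost in 9 of 16 fits that each left out 1 array. Ticam1, the adaptor of Tlr3 and of one arm of Tlr4 signalling, had 8.55, 8.66 and 8.86 on DSS arrays and 8.45, 8.70 and 8.86 on untreated arrays. Its difference was 0.02 ± 0.06 (95% interval -0.11 to 0.16).

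Every DSS array was above every untreated array for Tlr2, Tlr13 and Myd88, which was true of 1.58% of all genes. These members also passed the threshold without the untreated group with both sources, at 0.45 ± 0.08 (limma, adjusted p = 0.00572), 0.64 ± 0.12 (adjusted p = 0.00852) and 0.31 ± 0.07 (adjusted p = 0.0206), where 2.88% of all genes rose. Without the 3 arrays they were 0.43 (adjusted p = 0.0130), 0.60 (adjusted p = 0.0213) and 0.27 (adjusted p = 0.0436), where 2.5% rose. The mean after DSS was above the untreated mean in all 4 SIgA groups for 6 of the 10 members (Tlr2, Tlr3, Tlr4, Tlr13, Myd88 and Tirap), which was true of 13% of all genes. In a test for any difference among the 8 groups, Tlr2 (limma F test, adjusted p = 0.0245) and Tlr13 (adjusted p = 0.0274) passed, with 9.42% of all genes. In that test 0 members passed without the untreated group with both sources, 0 without the 3 arrays that stood apart, and 0 when any one of 3 arrays was left out: either untreated array with both sources, or DSS replicate 1 with passive SIgA only.

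The stretch just upstream of the transcription start was read for the members from RefSeq on GRCm38.p6, to show what letters lie there for members that rose together. Of the 10 members 9 matched, Tlr4 not. Of these, 3 had 2 transcription starts, which gave 12 windows. A motif was counted for a member if any of its windows held it, whereas the shares given next are per window. In the 250 bases upstream 4 motifs were searched on both strands: the NF-kB motif (3.9% of 32851 windows of this length hold it), the interferon-stimulated response element (ISRE) as GAAA followed after any 2 bases by GAAA (2.98%), AP-1 as TGANTCA (6.75%) and PU.1 as GAGGAAGT (2.44%). The NF-kB motif was found at Tlr2 and Tlr3, the ISRE at Myd88 and Tlr6, AP-1 at Tlr9 and PU.1 at Tlr1. Members that rose and members that did not are both among these. The sequences of the 3 members above the array median that rose and held a match are given 5′ to 3′ on the gene's strand, with the motif in capitals. The Myd88 piece ends at the base before the start, and the other pieces lie inside the annotated extent of their gene. The Tlr2 match reads as the motif on both strands. A match is a run of letters and was not tested as a binding site.
Myd88, chr9:119340019-119340138, minus strand: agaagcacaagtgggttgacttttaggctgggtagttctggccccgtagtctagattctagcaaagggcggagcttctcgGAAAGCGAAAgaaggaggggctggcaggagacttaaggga
Tlr2, chr3:83841762-83841790, minus strand: aggacacctGGGGAATTCCCacacggagc
Tlr3, chr8:45410572-45410601, minus strand: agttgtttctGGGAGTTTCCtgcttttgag

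The next question was whether the DSS response differed with the source of SIgA. With both sources, 4 members rose after DSS (limma, adjusted p under 0.05), where 3.56% of all genes did: Tlr3 by 0.63 (adjusted p = 0.027), Tirap by 0.60 (adjusted p = 0.0184), Tlr2 by 0.51 (adjusted p = 0.037) and Tlr13 by 0.76 (adjusted p = 0.0341). The untreated arrays of this comparison are 2 of those that stood apart, and 0 members passed when either of them was left out. Without DSS replicate 1 of this group 2 members passed, and 1 without DSS replicate 2. In the other SIgA groups 0 members passed. With neither source 1.12% of all genes were called, with active SIgA only 0.998% and with passive SIgA only 1.98%. An unadjusted p under 0.05 was found for 2 members with neither source, where 9.14% of all genes had one. With active SIgA only it was 4 members and 12.8% of genes, and with passive SIgA only 2 members and 11.4% of genes. The estimates had the same sign in those groups for the members that rose on average: Tlr2 differed by 0.29 ± 0.14 with neither source, 0.48 ± 0.14 with active SIgA only and 0.57 ± 0.14 with passive SIgA only. For Tlr13 the values were 0.56 ± 0.21, 0.52 ± 0.21 and 0.84 ± 0.21, and for Myd88 0.29 ± 0.12, 0.43 ± 0.12 and 0.22 ± 0.12. Tlr3 had 0.24 ± 0.16, 0.41 ± 0.16 and 0.07 ± 0.16, and Tirap 0.19 ± 0.14, 0.16 ± 0.14 and 0.12 ± 0.14, in the same order of groups. With 2 arrays a group the standard error of a single group's effect was up to 0.30.

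**Figure D3:**
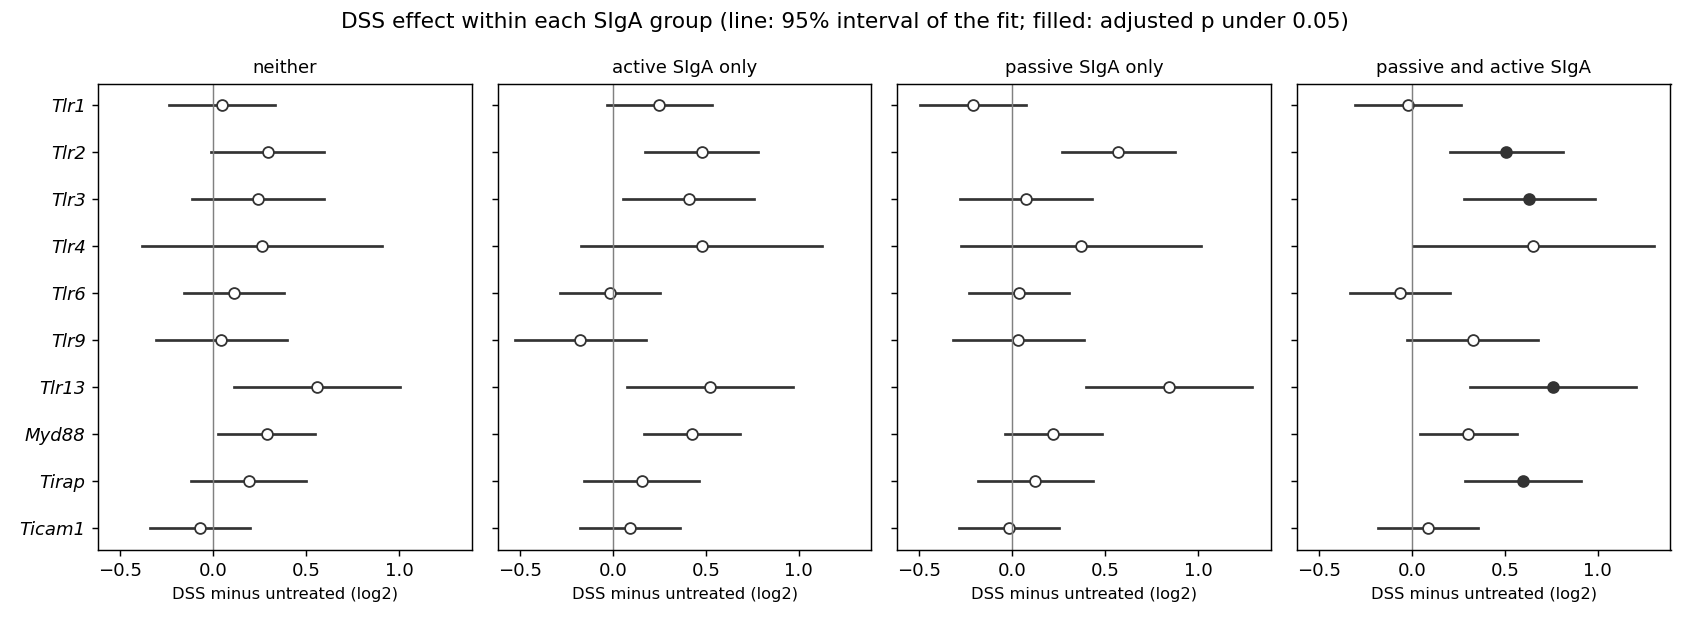
DSS minus untreated difference (x axis, log2) of each member within each SIgA group, with its 95% interval; filled points passed an adjusted p of 0.05. The filled points, Tlr2, Tlr3, Tlr13 and Tirap, are all in the group with both sources of SIgA.

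A call in 1 group and not in another does not show a difference, so the DSS effects were compared directly between each pair of SIgA groups. Over 6 pairs and 10 members 0 of 60 tests passed (5 with an unadjusted p under 0.05). Of all genes, 2.41%, 1.07% and 2.17% were called in the pairs that set both sources against passive SIgA only, active SIgA only and neither, and 0% in the other pairs. The smallest unadjusted p was that of Tlr1, whose DSS effect with passive SIgA only minus that with active SIgA only was -0.46 ± 0.19 (limma, adjusted p = 0.75). Tlr3 and Tirap had DSS effects higher by 0.56 ± 0.23 (adjusted p = 0.297) and 0.47 ± 0.20 (adjusted p = 0.319) with both sources than with passive SIgA only. The interaction of DSS with passive SIgA called 0 members and 0.115% of all genes, and that with active SIgA 0 members and 0.843% of genes. An unadjusted p under 0.05 was found for 8.14% of genes and 0 members in the first, and for 12% of genes and 1 member in the second. This member was Tlr3, at -0.36 ± 0.16 (adjusted p = 0.41).

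The last question was what the lack of each source of SIgA did by itself. In untreated mice the lack of active SIgA called 0 members, where 7.49% of all genes were called. An unadjusted p under 0.05 was found for 2 members, where 28% of all genes had one. The 2 members were Tlr3, higher by 0.40 ± 0.12 without active SIgA (limma, adjusted p = 0.0555), and Tlr1, by 0.26 ± 0.09 (adjusted p = 0.0978). The comparison includes the untreated arrays that stood apart, all of them from mice with active SIgA. Without the group with both sources the Tlr3 difference was 0.30 ± 0.17 (adjusted p = 0.463), and without all 3 arrays it was 0.02. The lack of passive SIgA in untreated mice called 0 members, where 2.58% of genes were called. An unadjusted p under 0.05 was found for 19.9% of genes and 1 member. That member was Tlr1, at -0.22 ± 0.09 (adjusted p = 0.207), and its 2 untreated arrays with passive SIgA only, 9.77 and 9.73, were the highest of all 16.

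After DSS, the lack of passive SIgA called 0 members and 0% of all genes. An unadjusted p under 0.05 was found for 3.95% of genes and 1 member. This was Tirap, with 8.62 and 8.38 (neither) and 8.44 and 8.51 (active SIgA only) on arrays without passive SIgA, against 8.76 and 8.57 (passive SIgA only) and 8.73 and 8.97 (both) on arrays with it. Those arrays overlapped, and the difference of -0.27 ± 0.10 had an unadjusted p of 0.0191 and an adjusted p of 0.9997 by limma. The lack of active SIgA after DSS called 0 members and 0.00502% of genes (0 members and 1.66% of genes with an unadjusted p under 0.05). Mice with neither source against mice with both, after DSS, gave the same 0 members and 0.00502% of genes. An unadjusted p under 0.05 was found there for 2.3% of genes and 1 member, Tirap at -0.35 ± 0.14. The intervals bound what was missed for Myd88: its difference after DSS was -0.0030 (95% interval -0.19 to 0.18) without passive SIgA and -0.03 (-0.21 to 0.16) without active SIgA. For Tlr4 the interval without passive SIgA after DSS was -0.43 to 0.49, wide enough to hold a change of the size of its DSS effect.

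**Figure D4:**
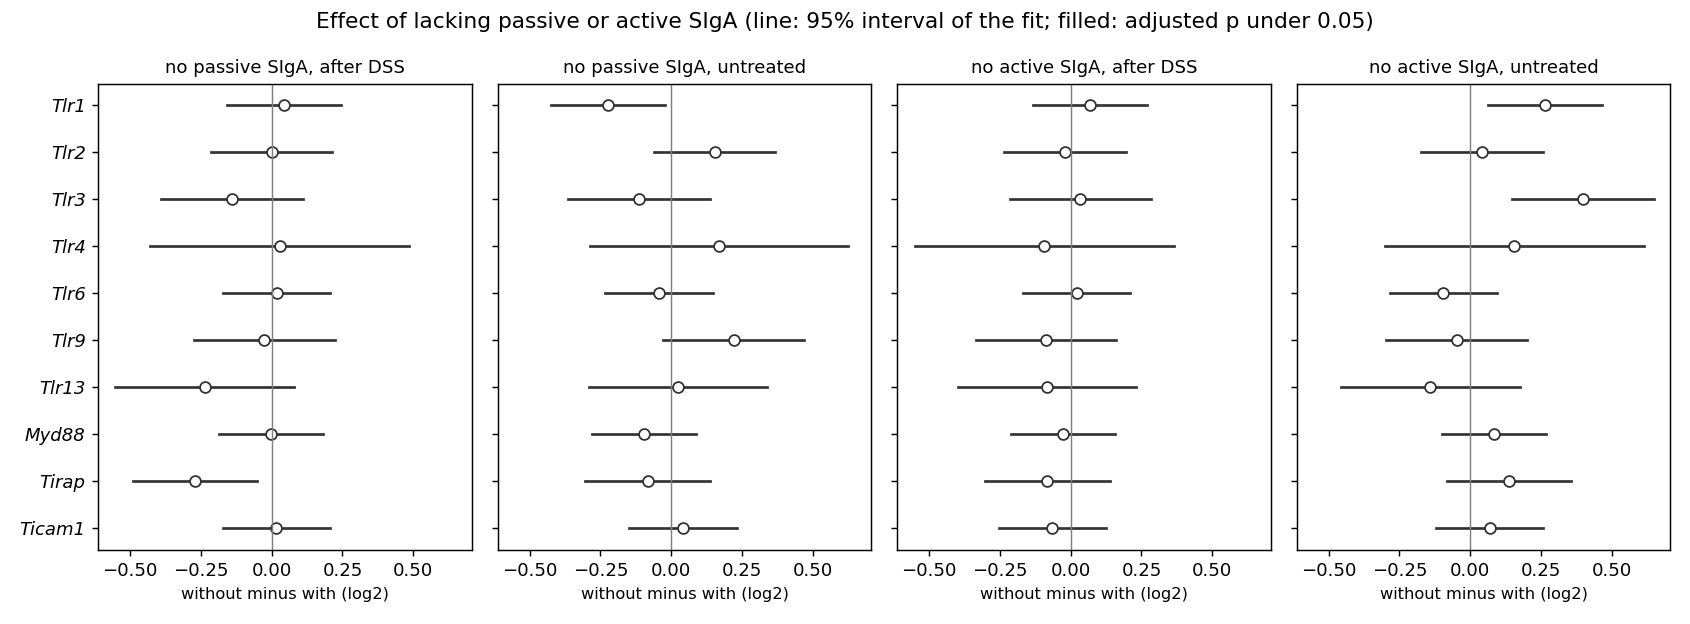
Difference (x axis, log2, without minus with) of each member for the lack of passive SIgA and of active SIgA, after DSS and in untreated mice, with its 95% interval. No point is filled, as 0 members passed an adjusted p of 0.05, and Tlr3 in untreated mice without active SIgA lies highest at 0.40.

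The rest of the pathway was read from lists of its parts for the average DSS effect. Of 11 accessory and co-receptor proteins 4 rose and 0 fell, beside 6.4% of all genes, with a median change of 0.15. Lbp, which carries lipopolysaccharide, averaged 8.76 ± 0.24 on DSS arrays and 6.85 ± 0.26 on untreated arrays (SD, n = 8 each), and rose by 1.90 ± 0.12 (limma, adjusted p = 4.72e-07). Cd14, which passes lipopolysaccharide on to Tlr4 and Ly96 and is also a macrophage marker, averaged 8.80 ± 0.18 on DSS arrays and 7.81 ± 0.21 on untreated arrays and rose by 0.99 ± 0.08 (adjusted p = 4.76e-06). The endoplasmic reticulum proteins Hsp90b1, a chaperone of TLRs, and Lrrc59 rose by 0.39 and 0.37. Ly96 differed by 0.50 ± 0.20 (adjusted p = 0.128), and Unc93b1, which brings nucleic acid receptors to endosomes, by 0.15 ± 0.06 (adjusted p = 0.117).

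The other receptors with a value, Tlr7, Tlr8 and Tlr12, were above the median on 0 of 16 arrays and 0 of 3 changed. Tlr7 averaged 4.40 ± 0.21 on DSS arrays and 4.28 ± 0.21 on untreated arrays, and Tlr8 averaged 4.77 ± 0.09 on DSS arrays and 4.83 ± 0.18 on untreated arrays (SD, n = 8 each). Tlr5 was not analysed here. Beside 6.4% of all genes that rose, 1 of 11 further adaptors and brakes rose and 0 fell. It was the signalling adaptor Pik3ap1 (0.61, limma adjusted p = 0.000875). Of 13 kinases and ubiquitin ligases 1 rose, again beside 6.4% of all genes. This was Ikbkb, a kinase that releases NF-kB (0.17, adjusted p = 0.041, and 0.194 without the untreated group with both sources). Of 11 transcription factors 0 rose and 2 fell, where 6.73% of all genes fell: Irf7, a driver of interferon genes, by 0.53 (adjusted p = 0.00632), and Fos by 0.24 (adjusted p = 0.113 without the untreated group with both sources).

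The output genes, cytokines, chemokines and enzymes that the pathway among others induces, had the highest median change of the 6 pathway lists. Of 18 genes 11 rose and 0 fell, beside 6.4% of all genes that rose, with a median change of 0.54. The chemokine genes Ccl3 and Cxcl2 rose by 3.12 ± 0.14 and 2.48 ± 0.10, Il1b by 2.35 ± 0.16 and Nos2, the inducible nitric oxide synthase, by 2.28 ± 0.08. Without the untreated group with both sources 10 of the 18 rose, beside 2.88% of all genes, and Cxcl1 no longer passed (limma, adjusted p = 0.0819). Ccl3, Cxcl2, Il1b and Nos2 are the called genes with the smallest p. The other called genes of the list ran down to Il6 (0.60), Cxcl1 (0.48) and Nfkbiz (0.36). These changes lay inside the range of the called receptors and adaptors (0.27 to 0.67). Il6, and Tlr13 at the upper end of that range, were above the array median on 0 of 16 arrays. Nfkbia (0.05) and Ccl4 (0.17) did not pass.

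Markers of other cells moved with DSS as well, where 6.4% of all genes rose and 6.73% fell. Of 19 monocyte and macrophage markers 10 rose and 0 fell, 2 of them above the array median on all 16 arrays and 10 on none. Their mean level was 6.27 to 6.52 on DSS arrays and 5.82 to 6.18 on untreated arrays. Of 14 neutrophil markers 9 rose and 0 fell, 0 of them above the median on all arrays and 8 on none, with a mean level of 6.15 to 6.75 on DSS arrays and 5.48 to 5.94 on untreated arrays. The markers with the smallest p were Cd14 (0.99), Fcer1g (0.99) and Cybb (1.12) of macrophages, and Retnlg (1.54), Hdc (1.03) and S100a8 (1.11) of neutrophils. Adgre1, a defining macrophage marker, was above the median on 0 of 16 arrays and did not pass (adjusted p = 0.0626). Neutrophil granule genes differed among themselves: Ltf rose by 0.42 and Mmp9 by 0.50, while Mpo (0.05) and Elane (-0.0018) did not pass. Of 9 dendritic cell markers 1 rose and 0 fell, 3 of 10 fibroblast markers rose, 2 of 9 B and plasma cell markers fell (beside 6.73% of all genes), and 0 of 11 T cell and 0 of 8 endothelial markers changed. Epithelial markers averaged 12.28 to 12.44 on DSS arrays and 12.37 to 12.50 on untreated arrays, and 3 of 15 fell. Without the untreated group with both sources, 10 of 19 macrophage and 9 of 14 neutrophil markers rose, beside 2.88% of all genes, and 1 of 15 epithelial markers fell. In that fit 0 of 9 dendritic cell markers rose (Ccr7, limma adjusted p = 0.154). The 1 of 9 B and plasma cell markers that fell was Sdc1, at -0.28 (adjusted p = 0.0163). Sdc1 was above the array median on all 16 arrays, whereas 5 of the 9 were above it on none. Igha was at -0.24 (adjusted p = 0.593), against -0.61 with all arrays. Macrophages and neutrophils express TLRs and Myd88 too, and in pooled cells more cells of a type and more RNA per cell cannot be told apart. Their part in the rise of the members was not tested.

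Within the 8 DSS arrays the members were set against the mean of the macrophage markers, 10 relations in all, and 0 passed. Tlr13 had a Pearson r of 0.67 (exact permutation p = 0.0768, adjusted p = 0.397) and a Spearman rho of 0.64 (exact permutation p = 0.0962, adjusted p = 0.81), and r was 0.77 without the 2 arrays farthest from the median marker level. Tlr2 had an r of -0.20 (exact permutation p = 0.627, adjusted p = 0.784), a rho of -0.17 (exact permutation p = 0.703, adjusted p = 0.882) and an r of 0.24 without those 2 arrays. Myd88 had an r of 0.26 (exact permutation p = 0.543, adjusted p = 0.784), a rho of 0.07 (exact permutation p = 0.882, adjusted p = 0.882) and an r of -0.43 without them. Against the neutrophil markers, again 10 relations with 0 passed, Tlr13 had an r of 0.65 (exact permutation p = 0.00729, adjusted p = 0.0729), a rho of 0.79 (exact permutation p = 0.0279, adjusted p = 0.279) and an r of 0.72 without the 2 farthest arrays. Myd88 ran the other way, with an r of -0.51 (exact permutation p = 0.117, adjusted p = 0.389), a rho of -0.71 (exact permutation p = 0.0576, adjusted p = 0.288) and an r of -0.25 without those arrays. Ticam1 had an r of -0.57 (exact permutation p = 0.0942, adjusted p = 0.389), a rho of -0.62 (exact permutation p = 0.115, adjusted p = 0.383) and an r of -0.25 without them, and Tlr2 an r of 0.42 (exact permutation p = 0.248, adjusted p = 0.62), a rho of 0.36 (exact permutation p = 0.389, adjusted p = 0.626) and an r of 0.52 without them. All tests were two-sided, and DSS arrays of the same SIgA group share a genotype.

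**Figure D5:**
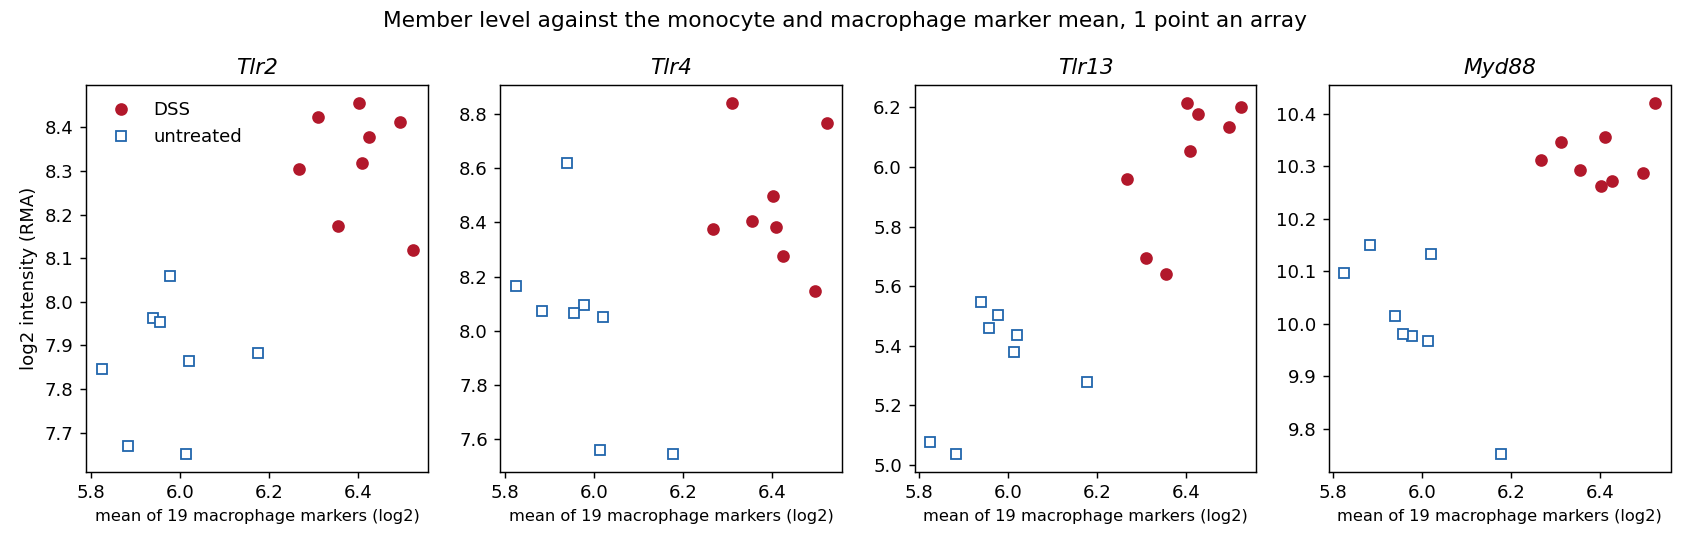
Log2 level of members (y axis) against the mean log2 level of the monocyte and macrophage markers (x axis) on each array, DSS filled and untreated open. Marker levels of the 2 treatments do not overlap, at 6.27 to 6.52 on DSS arrays and 5.82 to 6.18 on untreated arrays, and within the DSS arrays no relation passed the test.

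For each member above the median on all arrays, the genes whose 8 group means followed it most closely were taken from 9348 genes, as a description over 8 points that share arrays and the DSS contrast. Tlr2 was followed by Irf8 (Pearson r 0.994), Trim15 (0.993) and Psma5 (0.992). Myd88 was followed by Reg3g (0.995) and Reg3b (0.993), which encode antibacterial lectins of the gut, and by Ldah (0.992). Tlr4 was followed by Slc3a1 (0.999), Sbno2 (0.993) and Ubxn4 (0.989), and Tlr3 by Amn1 (0.982), Nudt7 (0.980) and Naaladl2 (0.980). Tirap had Zfp84 (0.972), Phip (0.955) and Ahsa2 (0.954), and Tlr1 had Kdelr1 (0.981), Slc35a3 (0.974) and Isca2 (0.967). The lowest were those of Ticam1, with Ssbp3 (0.957), Sema4a (0.917) and Cdpf1 (0.909).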

How the data were processed

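RNA of isolated colonic epithelial cells, pooled from 3 mice for each array, was hybridised to 16 Affymetrix whole-transcript arrays, 2 in each of 8 groups, per the labels. The deposited values are log2 intensities made with RMA, per the submitters' processing notes, with the version not given in the sources used here. RMA's quantile normalization makes array distributions alike, so values are relative to the other genes. Of 35557 probe sets the 21789 naming 1 gene were used, the one with the highest mean for the 999 genes with several, which left 19938 genes.

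A mean per group was fitted with limma 3.58.1 in R 4.3.3 (8 residual and 5.03 prior degrees of freedom), with Benjamini-Hochberg adjustment over the 19938 genes and a call at an adjusted p under 0.05. Tests were two-sided, and intervals are 95% intervals of the fit. Untreated was subtracted from DSS, and mice with a source of SIgA from mice without it. The fit was tested on simulated data. The number of arrays limits the precision, and p-values measure the spread between pools, not mice.

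The members and lists were chosen with earlier results of these data known. All members are named, and from each pathway list Tlr5, Tlr7, Tlr8, Cd14, Ly96, Unc93b1 and up to 4 called genes with the smallest p; from each marker list up to 3; and for each member above the median on all arrays the 3 genes with the highest r. Cxcl1, Il6, Nfkbiz, Nfkbia, Ccl4, Adgre1, Tyrobp, Ltf, Mmp9, Mpo, Elane, Ccr7 and Igha were named after their values were seen. Alternatives covered scaling, filters, probe sets, array weights, blocks and arrays left out.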

Additional observations from a re-analysis of the deposited data

Results flagged for a closer look

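The level of Myd88 on untreated replicate 1 with active SIgA only, 9.752, lay farther below the other 7 untreated arrays (9.97 to 10.15) than Dixon's 95% limit allows for 8 samples. Its gap was 0.541 of the group's range. The untreated arrays hold 4 SIgA groups, and this array is one of those that stood apart. Each of the 10 members was examined in the DSS arrays and in the untreated arrays, 20 sets in all, and chance gives such a value in about 1 in 20.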

How the results depend on the processing

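For the average DSS effect 5 members were called; 1 passed with a fold of at least 1.5 required, 3 without the untreated group with both sources of SIgA, 3 without the 3 arrays that stood apart (chosen after seeing the data), and 4 to 6 with 1 array left out. With both sources (4 called) the count was 2 with array weights, 2 with all probe sets, 1 with only the arrays compared, and 0 to 4 with 1 array left out. With passive SIgA only (0 called) it was 2 with a variance trend, 2 with array weights, 2 with the replicate block, 1 with the filter on dim probe sets, 1 with only the arrays compared, 2 at an adjusted p under 0.1, and 0 to 1 with 1 array left out; with active SIgA only 0 to 2. For the lack of active SIgA in untreated mice (0 called) it was 1 with a variance trend, 1 with array weights, 1 with the replicate block, 1 with median centring, 2 at an adjusted p under 0.1, and 0 to 2 with 1 array left out. For any difference among the groups (2 called) it was 4 with a variance trend, 1 with the dim filter, 1 with all probe sets, 0 without the untreated group with both sources, 0 without the 3 arrays, 4 at an adjusted p under 0.1, and 0 to 5 with 1 array left out. The DSS effects of Tlr1 and Ticam1 were -0.024 and -0.017 after quantile normalization of the genes tested, that of Tlr9 -0.033 without the untreated group with both sources, and that of Tlr1 -0.014 without the 3 arrays; with 1 array left out Tlr1 ran from -0.016 to 0.050, Tlr6 from -0.027 to 0.060, Ticam1 from -0.0067 to 0.054, Tirap from 0.22 to 0.32 and Tlr4 from 0.31 to 0.58. The member that passed with a fold of at least 1.5 required was Tlr13 (1.59-fold), which was below the array median on all 16 arrays. Among the members above the median on all arrays the highest fold was that of Tlr2, at 1.38. Tlr4 passed with array weights (0.44, limma adjusted p = 0.0405) and with the replicate block (0.44, adjusted p = 0.0228). Same-numbered arrays deviated from their group means with correlations of -0.301 to 0.666, above 0.1 in 14 of 28 pairs of groups. Among 6 groups, all except the DSS groups without passive SIgA, 15 of 15 pairs were positive and 14 above 0.1; with those DSS groups 1 of 13 pairs was positive. As not every pair exceeded 0.1 and the labels name no shared litter or batch, the fit without the block was kept. Whether Tlr4 passed for the average DSS effect therefore depended on this choice. So did Tlr3 for the lack of active SIgA in untreated mice (0.40, limma adjusted p = 0.0400 with the block). Causes of these changes were not tested. The share of all genes called was counted for the average DSS effect without the arrays that stood apart, and not for the other alternatives. The other counts can therefore not be set against all genes. Fits of only the arrays compared were not run for the average DSS effect, the interactions and the test for any difference.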

Other observations

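Tlr4 varied between the 2 arrays of a group to a different extent in Pigr+/- and Pigr-/- offspring. The gap between arrays was 0.49 to 1.08 log2 in the 4 groups of Pigr+/- offspring and 0.0066 to 0.12 log2 in the 4 groups of Pigr-/- offspring, so that every gap of Pigr+/- offspring was wider. Of the Pigr+/- groups, 2 hold the 3 arrays that stood apart: the untreated groups with active SIgA only (gap 1.08) and with both sources (0.49). The DSS groups of the same genotypes, which hold none of them, had gaps of 0.57 and 0.62. Tlr1 had the same separation, at 0.20 to 0.26 log2 in Pigr+/- offspring and 0.037 to 0.18 log2 in Pigr-/- offspring. It held for 526 of 19938 genes, or 2.64%. Ly96, the partner of Tlr4, did not have it, with gaps of 0.18 to 1.37 log2 in Pigr+/- offspring and 0.31 to 0.81 log2 in Pigr-/- offspring. The Tlr4 gaps of Pigr+/- offspring also had the same direction, with replicate 2 above replicate 1 in each group. With active SIgA only the replicates had 7.54 and 8.62 untreated and 8.28 and 8.84 after DSS. With both sources they had 7.56 and 8.05 untreated and 8.15 and 8.77 after DSS. Ly96 also had replicate 2 above replicate 1 in each group of Pigr+/- offspring. It had this direction in the groups of Pigr-/- offspring as well, except in DSS mice with neither source (9.48 and 8.67). The Tlr4 gaps may thus go with replicate number as well as with genotype, and these were not told apart. The pattern was noticed in these data and was not tested.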
